A study of Homo sapiens with 12 samples.

Results

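The genes described here carry cargo between the endoplasmic reticulum (ER) and the Golgi: 55 genes of the COPII coat, the COPI coat, the ARF cycle, the KDEL receptors, the cargo receptors, the TMED family, the SNAREs and the tethers. They are the rows whose Ensembl ID (version removed) maps to a listed symbol. The rule itself uses no measured value, but the set was proposed with earlier results of these data known. All 55 were found among the 20015 genes of the table. RNA was sequenced from HT29, an epithelial line from a human colon tumour, in a version that expresses Cas9. QRICH1 KO cells had received a lentiviral guide against QRICH1, a nuclear protein studied for its part in the ER stress response, and WT cells a lentiviral guide with no target. Each was given Tm (tunicamycin, which blocks N-linked glycosylation and so stresses the ER) at 0.3 µg/ml or the solvent DMSO, for 14 h. This gave 4 groups of 3 libraries: QRICH1 KO with Tm, QRICH1 KO with DMSO, WT with Tm and WT with DMSO. All groups share Cas9 and a lentiviral guide. Whether the QRICH1 KO cells were a single clone or a pool is not given in the sources used here.

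Cargo leaves the ER in vesicles made by the COPII coat. PREB (also called SEC12) loads the GTPase SAR1, which recruits SEC23 with the cargo-binding SEC24, and then SEC13 with SEC31. The COPI coat, recruited by the GTPase ARF1, returns receptors and escaped ER proteins from the Golgi, and the KDEL receptors pick out the escaped chaperones for that return. Secretory cells are known to raise many of these genes when misfolded proteins collect in the ER, through the transcription factors XBP1 and ATF6.

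Library totals were 6856736 to 17861844 counts, so that 3 counts, used here as a detection floor, equal 0.168 to 0.438 CPM (counts scaled to a common library size). All 55 genes had at least 18 counts in every DMSO library, so all 55 passed the low-count filter without Tm. QRICH1 mRNA was 19.2 to 26.8 CPM in QRICH1 KO cells with Tm, against 25.7 to 31.05 CPM in WT cells with Tm. With DMSO it was 23.3 to 24.8 CPM in QRICH1 KO cells, against 22.7 to 34.97 CPM in WT cells, and neither difference passed the test (adjusted p = 0.352 with Tm and 0.577 with DMSO). Cas9 cuts can leave a transcript in place, so this mRNA level is no check of the genotype labels. Of 8 epithelial markers, 7 were at 1 CPM or more in each group, CDX2 being the exception, while 20 markers of blood, vessel, stroma, muscle and nerve cells summed to 3.57 to 6.44 CPM per library in QRICH1 KO cells with Tm, 3.81 to 6.51 in QRICH1 KO cells with DMSO, 3.01 to 3.50 in WT cells with Tm and 4.57 to 6.26 in WT cells with DMSO. Of the 3 of these that were tested, CD14 was lower with Tm in WT cells (mean 0.915 CPM, against 2.53 CPM with DMSO), and its part in the results was not tested. Library 3 of each QRICH1 KO group, with 14813 genes detected with Tm and 15340 with DMSO, stood above the other 10 libraries, which had 13124 to 14094. Libraries of a group are called biological replicates by the submitters, with no word on separate cultures, so p-values here measure the spread between these libraries.

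Most of the transport genes rose with Tm. In WT cells 47 of the 55 rose, none fell and 8 did not pass the test (edgeR's quasi-likelihood test, Benjamini-Hochberg adjusted p under 0.05 over 11323 genes), where 12.6% of all genes tested rose and 11.1% fell. The median log2 fold change was 1.12, beside -0.02 for all genes, and 31 of the 55 rose at least 2-fold, as did 4.73% of all genes. In QRICH1 KO cells 43 rose, 1 fell and 11 did not pass, where 9.09% of all genes rose and 6.53% fell. Their median was 0.91, beside -0.00 for all genes, and 23 rose at least 2-fold, as did 3.17% of all genes. Every Tm library stood above every DMSO library for 45 of the 55 in QRICH1 KO cells, as for 16.9% of all genes, and for 49 of the 55 in WT cells, as for 19% of all genes. The reverse held for 1 gene, RAB1B, in each genotype, as for 15.5% of all genes in QRICH1 KO cells and 18.5% in WT cells. The same 43 genes rose in both genotypes. KDELR1, LMAN2, TMED3 and YKT6 passed in WT cells and not in QRICH1 KO cells, and RAB1B, which fell in QRICH1 KO cells, did not pass in WT cells.

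**Figure D1:**
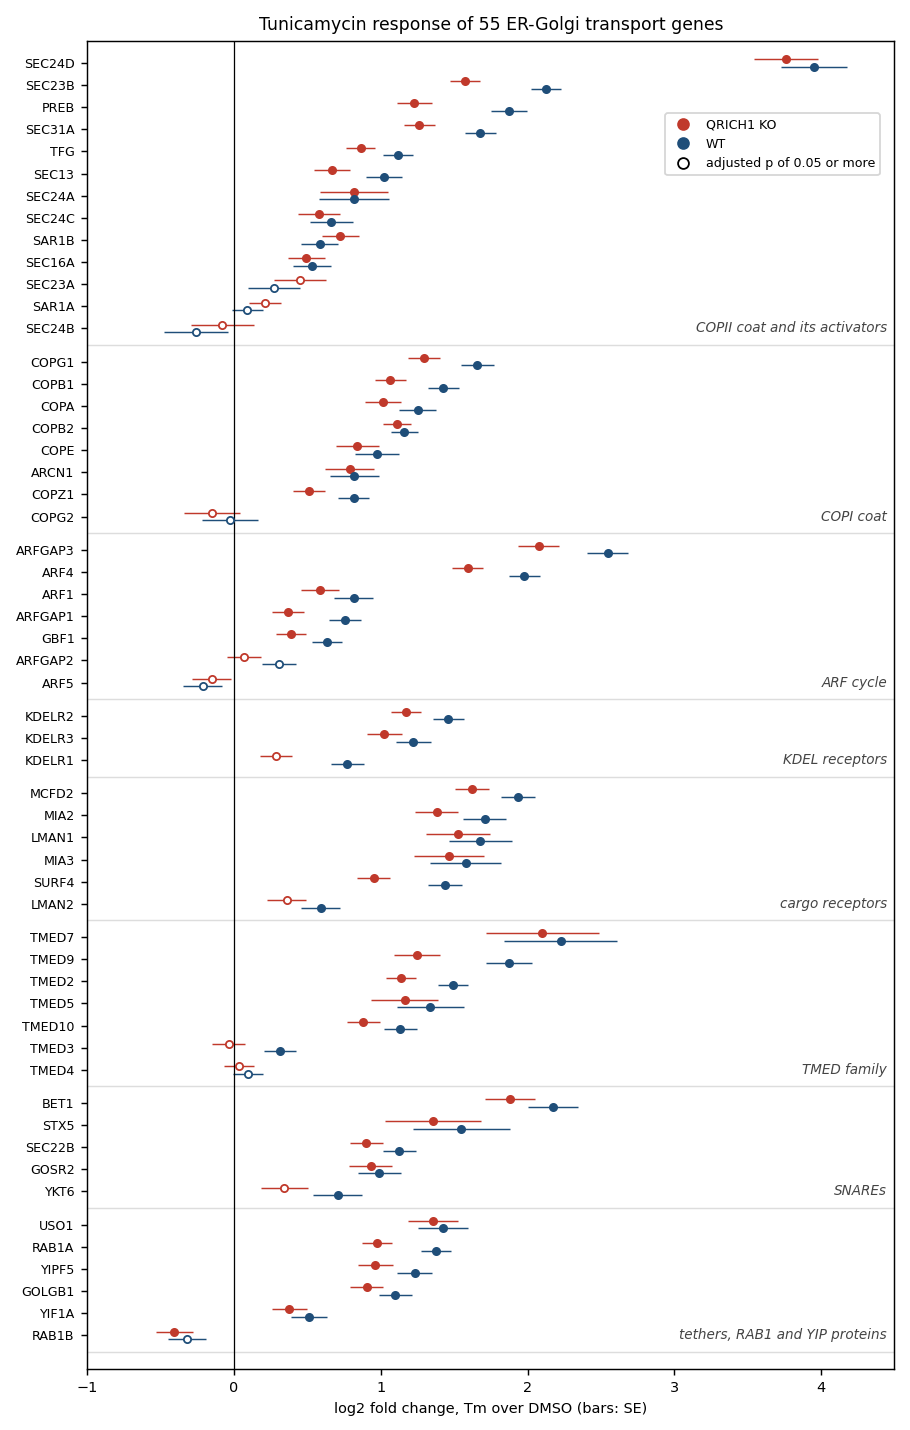
Log2 fold change of Tm over DMSO (horizontal axis, bars are standard errors) for each of the 55 genes, in QRICH1 KO cells (red) and WT cells (blue), grouped by role. Filled points passed the test, 43 higher and 1 lower in QRICH1 KO cells and 47 higher in WT cells, and in 50 of 55 genes the QRICH1 KO point lies left of the WT point.

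Together the 55 genes took 1.20% ± 0.037 of all counts in QRICH1 KO cells with Tm and 0.704% ± 0.036 in QRICH1 KO cells with DMSO (SD, n = 3 each). In WT cells they took 1.46% ± 0.073 with Tm and 0.727% ± 0.024 with DMSO. Every Tm library of either genotype lay above every DMSO library. With Tm, the QRICH1 KO libraries (1.16% to 1.23%) lay below the WT libraries (1.38% to 1.52%). These are shares of a library's RNA, and in bulk RNA a change in the number of cells that express a gene and a change in RNA per cell cannot be told apart.

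The promoters are shown because so many of the genes moved together. RefSeq promoter sequence (GRCh38.p14) was at hand for 46 of the 55 genes, and the 250 bases before each start were searched on both strands. The other 9 could not be searched: SEC24D, USO1, KDELR2, TMED9, ARF4, TMED4, ARFGAP1, MIA2 and RAB1A. The core of the unfolded protein response element, TGACGTGG, a sequence bound by ATF6 and XBP1, was found in 6 of the 46 genes (13%), against 0.983% of 9258 genes tested and 0.78% of all 27305 genes in the promoter table, counting a gene once if any of its promoters holds the letters. The 30 bases around it read 5′ to 3′ on the strand of the gene, with the core or its reverse complement in capitals, as follows.
ARF1, chr1:228082678-228082707, plus strand: gcgcccggaggcgcTGACGTGGccgccgtc
COPB2, chr3:139389825-139389854, minus strand: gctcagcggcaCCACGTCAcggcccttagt
SEC24A, chr5:134648595-134648624, plus strand: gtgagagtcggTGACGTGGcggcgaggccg
COPB1, chr11:14499841-14499870, minus strand: cccacccccttCCACGTCAgccaaggactc
STX5, chr11:62832052-62832081, minus strand: gggttacgtgtaggTGACGTGGccgcttcc
KDELR3, chr22:38468039-38468068, plus strand: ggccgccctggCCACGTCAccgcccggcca

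All 6 of these genes rose with Tm in both genotypes. In QRICH1 KO cells their fold changes ran from 1.5 (ARF1) to 2.56 (STX5), and in WT cells from 1.76 (ARF1) to 2.93 (STX5), so they were not the genes with the largest responses. The core contains the shorter ACGTG, which was present in 22 of the 46 genes (47.8%), against 29.2% of genes tested and 21.7% of all genes in the table. ACGTG was in 21 of the 39 genes that rose in WT cells and in 1 of the 7 that did not pass, SAR1A. CCACG, the end of the ER stress response element and contained in the reverse complement of the longer core, was in 32 of the 46 genes (69.6%), against 52.1% of genes tested and 37.5% of all genes in the table. CCACG was in 27 of the 39 genes that rose in WT cells and in 5 of the 7 that did not pass. Neither whole ER stress response element (ERSE and ERSE-II, of which CCACG is a part) was found in any of the 46, against 0.162% and 0.14% of genes tested. The amino acid response element that ATF4 binds (TGATGNAA) was in 1 of the 46 (2.17%), MCFD2, against 2.29% of genes tested and 3.89% of all genes in the table. A match is a run of letters and no test was made of it.

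COPG1 and COPG2, a rising gene and its paralog, differ in these letters. A further gene that did not pass holds the same ones as the rising gene. COPG1, whose mRNA rose, holds ACGTG next to its start, overlapped by the reverse complement of CCACG. COPG2, whose change did not pass the test, holds only the reverse complement of CCACG, and SAR1A, which did not pass either, holds both. The SAR1 pair runs opposite to the COPG pair: SAR1B, the paralog of SAR1A, rose in both genotypes and holds neither ACGTG nor CCACG. PREB, which also rose in both genotypes, holds neither as well. Capitals mark these letters in 30 bases, those of the match nearest the start.
COPG1, chr3:129249576-129249605, plus strand: cgcctgcgcagagcgctgggcgACGTGGcc
COPG2, chr7:130668831-130668860, minus strand: gaggagaagggggCGTGGctgcgtcccggg
SAR1A, chr10:70170697-70170726, minus strand: gttccggcgctgCCACGTctcgcgcggtca

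Of the 13 genes of the COPII coat and its activators, 10 rose with Tm in each genotype and none fell, and SAR1A, SEC23A and SEC24B did not pass in either. The response ran unevenly through the SEC24 genes, which choose the cargo. SEC24D (ENSG00000150961.15, chr4:118722823-118838683, minus strand, GRCh38 with GENCODE 29 coordinates, as for all genes below) moved most of all 55. SEC24D had 97.4, 111 and 92.8 CPM in QRICH1 KO cells with Tm, against 9.16, 7.21 and 5.69 CPM with DMSO. In WT cells SEC24D had 128, 111 and 119.8 CPM with Tm, against 6.8, 4.99 and 11.3 CPM with DMSO. No Tm library came near a DMSO library, and the change was 13.6-fold (log2 3.76 ± 0.22 SE, adjusted p = 6.28e-10) in QRICH1 KO cells and 15.5-fold (log2 3.95 ± 0.22 SE, adjusted p = 2.07e-10) in WT cells.

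SEC24B (chr4:109433772-109540896, plus strand) stood at the other end of the family. SEC24B had 24.9, 39.8 and 41.8 CPM in QRICH1 KO cells with Tm, against 28.7, 42.7 and 41.2 CPM with DMSO. In WT cells SEC24B had 42.5, 24.9 and 39.1 CPM with Tm, against 35.4, 41.3 and 50.01 CPM with DMSO. The Tm and DMSO libraries overlapped in both genotypes, and neither log2 fold change passed the test (log2 -0.08 ± 0.22 SE, adjusted p = 0.851 in QRICH1 KO cells, and log2 -0.26 ± 0.22 SE, adjusted p = 0.432 in WT cells). SEC24A and SEC24C lay between. SEC24A had 11.6, 13.9 and 24.03 CPM in QRICH1 KO cells with Tm, against 8.48, 8.25 and 11.5 CPM with DMSO. In WT cells SEC24A had 18.6, 13.7 and 16.9 CPM with Tm, against 9.39, 8.89 and 9.6 CPM with DMSO. Tm libraries of SEC24A lay above the DMSO libraries in both genotypes, barely so in QRICH1 KO cells, where Tm library 3 stood apart at 24.03 CPM. SEC24A rose 1.76-fold (log2 0.82 ± 0.23 SE, adjusted p = 0.0228) in QRICH1 KO cells and 1.77-fold (log2 0.82 ± 0.24 SE, adjusted p = 0.0174) in WT cells. Without Tm library 3 the QRICH1 KO change of SEC24A was log2 0.43 and did not pass (adjusted p = 0.21), nor did it without QRICH1 KO DMSO library 1 (log2 0.75) or 2 (log2 0.73), and the WT call was lost without WT Tm library 1 (log2 0.72) or WT DMSO library 2 (log2 0.79). SEC24C had 41.3, 56.3 and 57.5 CPM in QRICH1 KO cells with Tm, against 31.7, 35.97 and 36.1 CPM with DMSO. In WT cells SEC24C had 58.5, 53.3 and 56.7 CPM with Tm, against 28.7, 39.2 and 37.7 CPM with DMSO. Tm and DMSO libraries of SEC24C did not overlap in either genotype, with 1.49-fold (log2 0.58 ± 0.14 SE, adjusted p = 0.00924) in QRICH1 KO cells and 1.58-fold (log2 0.66 ± 0.14 SE, adjusted p = 0.00225) in WT cells. Its QRICH1 KO call was lost without Tm library 2 (log2 0.52, adjusted p = 0.0504) or 3 (log2 0.49, adjusted p = 0.0522). Reads of SEC24C can come from either strand, and 42.9% of its exonic bases also lie in an unconfirmed gene on the opposite strand, AC022400.8, while SEC24A shares 385 exonic bases with SAR1B on the opposite strand.

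**Figure D2:**
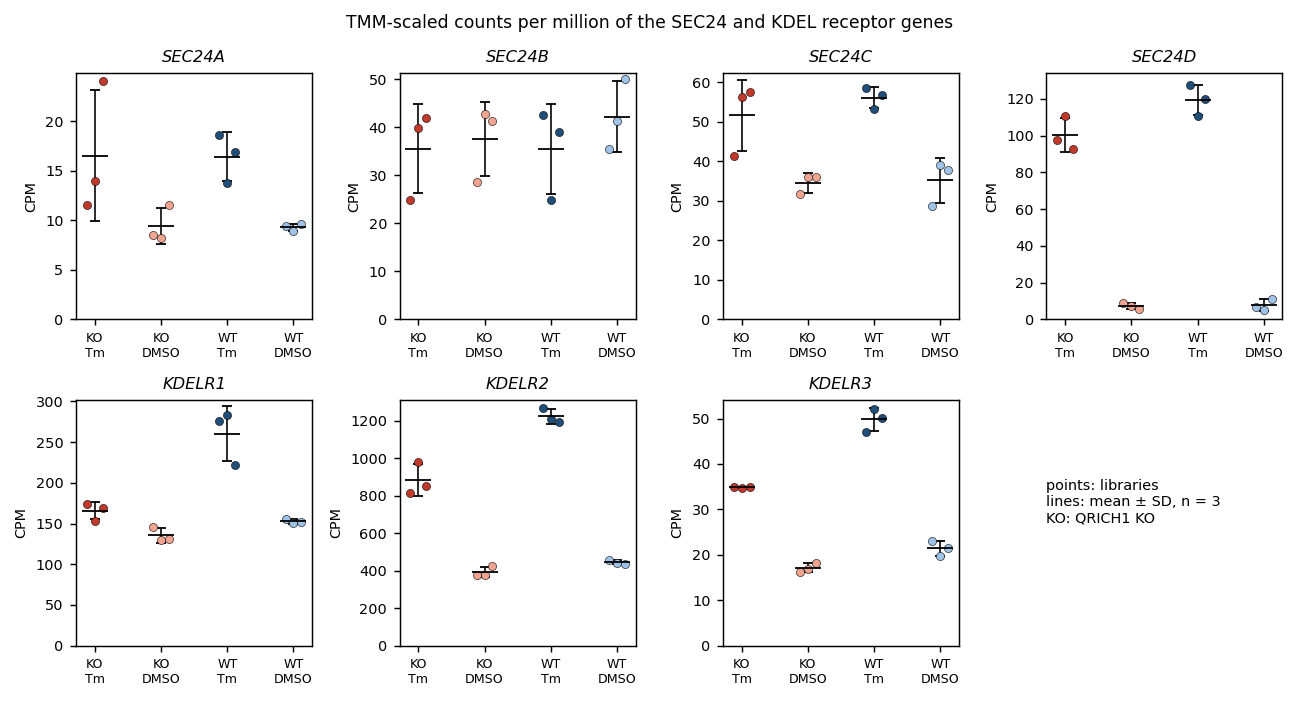
TMM-scaled CPM (vertical axes, linear, each from 0) of the 4 SEC24 genes and the 3 KDEL receptor genes, with 1 point per library and lines at the mean ± SD of 3 libraries. SEC24D stands at 92.8 to 128 CPM in all 6 Tm libraries and at most 11.3 CPM in all 6 DMSO libraries, SEC24B overlaps throughout, and each KDEL receptor gene is lower in QRICH1 KO cells than in WT cells with Tm.

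Next to SEC24, the inner-coat partner SEC23B, which speeds GTP hydrolysis by SAR1, rose strongly. SEC23B had 296, 336 and 299 CPM in QRICH1 KO cells with Tm, against 105, 110.3 and 97.5 CPM with DMSO. In WT cells SEC23B had 424, 458 and 437 CPM with Tm, against 98.1, 107 and 96.9 CPM with DMSO. The rise was 2.98-fold (log2 1.57 ± 0.1 SE, adjusted p = 2.19e-09) in QRICH1 KO cells and 4.37-fold (log2 2.13 ± 0.1 SE, adjusted p = 2.55e-11) in WT cells, with no overlap between Tm and DMSO libraries. Its paralog SEC23A had fold changes of 1.36 in QRICH1 KO cells and 1.21 in WT cells, neither of which passed. PREB rose 2.34-fold in QRICH1 KO cells and 3.67-fold in WT cells. Of the GTPases it loads, SAR1B rose 1.65-fold in QRICH1 KO cells and 1.5-fold in WT cells, while SAR1A did not pass. In the outer coat SEC31A rose 2.4-fold in QRICH1 KO cells and 3.2-fold in WT cells, and SEC13 rose 1.59-fold in QRICH1 KO cells and 2.03-fold in WT cells. Of the proteins that organise ER exit sites, TFG rose 1.82-fold in QRICH1 KO cells and 2.17-fold in WT cells, and SEC16A rose 1.41-fold in QRICH1 KO cells and 1.44-fold in WT cells. The QRICH1 KO call of SEC16A was lost without QRICH1 KO Tm library 2 (log2 0.43, adjusted p = 0.0687). SAR1A has 4 named pseudogenes and SEC24A and SEC13 have 1 each. Among the other classes ARF4 has 4, ARF1 has 3, TMED10 has 2, and MCFD2 and BET1 have 1 each. How reads were shared with such copies is not given in the sources used here.

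Of the 8 COPI coat genes, 7 rose with Tm in each genotype and COPG2 did not pass in either. COPG1, the main gamma subunit gene, responded most in WT cells and COPG2, its paralog, least. COPG1 had 561, 630.3 and 555 CPM in QRICH1 KO cells with Tm, against 239, 229 and 243 CPM with DMSO. In WT cells COPG1 had 720.2, 827 and 677 CPM with Tm, against 221, 258 and 225 CPM with DMSO. No Tm library of COPG1 overlapped a DMSO library, with 2.46-fold (log2 1.30 ± 0.11 SE, adjusted p = 8.48e-08) in QRICH1 KO cells and 3.16-fold (log2 1.66 ± 0.11 SE, adjusted p = 1.91e-09) in WT cells. COPG2 had 12.9, 17.3 and 13.8 CPM in QRICH1 KO cells with Tm, against 20.5, 14.1 and 13.9 CPM with DMSO. In WT cells COPG2 had 16.8, 14.2 and 17.03 CPM with Tm, against 18.5, 17.4 and 13.2 CPM with DMSO. The COPG2 libraries overlapped (log2 -0.15 ± 0.19 SE, adjusted p = 0.66 in QRICH1 KO cells, and log2 -0.03 ± 0.19 SE, adjusted p = 0.942 in WT cells). Both gene starts are shown above. The other subunits rose by 1.43-fold (COPZ1, zeta) to 2.16-fold (COPB2, beta prime) in QRICH1 KO cells and by 1.76-fold (COPZ1) to 2.68-fold (COPB1, beta) in WT cells.

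The subunit genes differed in level per length, and more so with Tm. In QRICH1 KO cells with Tm the 7 subunit genes other than COPG2 ran from 62.8 ± 12.2 (ARCN1, delta) to 189 ± 13.6 CPM per kb (COPG1), and in QRICH1 KO cells with DMSO from 36.4 ± 7.79 (ARCN1) to 76.9 ± 2.35 CPM per kb (COPG1). In WT cells with Tm they ran from 75.05 ± 11.9 (ARCN1) to 241 ± 25.1 CPM per kb (COPG1), and in WT cells with DMSO from 39.4 ± 0.55 (COPA, alpha) to 76.3 ± 6.68 CPM per kb (COPG1; SD, n = 3 each). Length here is that of the longest principal transcript in GENCODE 29. With Tm COPG1 stood above the zeta subunit gene COPZ1 in both genotypes (104 ± 2.78 CPM per kb for COPZ1 in QRICH1 KO cells and 128 ± 18.4 in WT cells). With DMSO COPG1 was above COPZ1 in QRICH1 KO cells by more than the SD of either (73.0 ± 2.20 CPM per kb for COPZ1), and in WT cells the means differed by less than the SD of either (73.0 ± 3.54 CPM per kb for COPZ1).

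In the ARF cycle, which loads and releases COPI, 5 of 7 genes rose in each genotype, none fell, and ARF5 and ARFGAP2 did not pass. ARFGAP3, a GTPase-activating protein of Golgi COPI vesicles, responded most. ARFGAP3 had 54.4, 55.96 and 50.04 CPM in QRICH1 KO cells with Tm, against 12.7, 10.7 and 14.6 CPM with DMSO. In WT cells ARFGAP3 had 89.00, 77.1 and 90.9 CPM with Tm, against 12.4, 15.3 and 15.8 CPM with DMSO. Its Tm libraries lay far above its DMSO libraries, with 4.21-fold (log2 2.08 ± 0.14 SE, adjusted p = 3.34e-09) in QRICH1 KO cells and 5.84-fold (log2 2.55 ± 0.14 SE, adjusted p = 1.3e-10) in WT cells. ARF4, a GTPase of the early Golgi, rose with it. ARF4 had 391, 421 and 415 CPM in QRICH1 KO cells with Tm, against 136, 141 and 131 CPM with DMSO. In WT cells ARF4 had 594, 603 and 583 CPM with Tm, against 174, 139.8 and 139 CPM with DMSO. That was 3.01-fold (log2 1.59 ± 0.11 SE, adjusted p = 3.45e-09) in QRICH1 KO cells and 3.94-fold (log2 1.98 ± 0.11 SE, adjusted p = 1.1e-10) in WT cells, without overlap. ARF4 has 4 named pseudogenes and an antisense gene over 11.6% of its exonic bases. ARF5 had 98.8, 94.9 and 83.9 CPM in QRICH1 KO cells with Tm, against 118, 105 and 86.01 CPM with DMSO. In WT cells ARF5 had 76.2, 98.8 and 74.8 CPM with Tm, against 98.8, 92.6 and 98.97 CPM with DMSO. ARF5 overlapped between Tm and DMSO in both genotypes (log2 -0.15 ± 0.13 SE, adjusted p = 0.491 in QRICH1 KO cells, and log2 -0.21 ± 0.13 SE, adjusted p = 0.275 in WT cells). GCC1 on the opposite strand shares 21.9% of the exonic bases of ARF5, and FSCN3 on the same strand shares 15.9%. ARF1 itself rose 1.5-fold in QRICH1 KO cells and 1.76-fold in WT cells, and ARFGAP1, another GTPase-activating protein, 1.29-fold in QRICH1 KO cells and 1.69-fold in WT cells. GBF1, the exchange factor that loads ARF1 at the early Golgi, rose 1.31-fold in QRICH1 KO cells and 1.55-fold in WT cells. In QRICH1 KO cells the ARFGAP1 call was lost in 5 of the 12 fits that left out 1 library, those without QRICH1 KO Tm library 1 or 2 or any QRICH1 KO DMSO library (log2 0.32 to 0.38, adjusted p = 0.0644 to 0.116), and the GBF1 call was lost without QRICH1 KO Tm library 2 (log2 0.37, adjusted p = 0.0554).

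The KDEL receptors rose in different measure. KDELR2 (chr7:6445953-6484242, minus strand) was the most abundant of the 3 per length in all groups. KDELR2 had 817, 983 and 854 CPM in QRICH1 KO cells with Tm, against 376, 378 and 425 CPM with DMSO. In WT cells KDELR2 had 1269, 1210.5 and 1195 CPM with Tm, against 457, 442 and 437 CPM with DMSO. It rose 2.25-fold (log2 1.17 ± 0.1 SE, adjusted p = 1.63e-07) in QRICH1 KO cells and 2.75-fold (log2 1.46 ± 0.1 SE, adjusted p = 5.12e-09) in WT cells, with no overlap. KDELR3 (chr22:38468062-38483447, plus strand), whose promoter holds the TGACGTGG core shown above, was the least abundant of the 3. KDELR3 had 34.9, 34.7 and 35.01 CPM in QRICH1 KO cells with Tm, against 16.3, 16.9 and 18.2 CPM with DMSO. In WT cells KDELR3 had 47.1, 52.2 and 50.2 CPM with Tm, against 23.00, 19.7 and 21.6 CPM with DMSO. Its Tm libraries again stood clear of its DMSO libraries, and it rose 2.03-fold (log2 1.02 ± 0.12 SE, adjusted p = 5.42e-06) in QRICH1 KO cells and 2.33-fold (log2 1.22 ± 0.12 SE, adjusted p = 3.4e-07) in WT cells. For KDELR1 (chr19:48382570-48391553, minus strand) the rise passed the test in WT cells. KDELR1 had 173, 154 and 169 CPM in QRICH1 KO cells with Tm, against 146, 129.7 and 131 CPM with DMSO. In WT cells KDELR1 had 276, 283 and 222 CPM with Tm, against 156, 150.4 and 151 CPM with DMSO. Tm and DMSO libraries did not overlap in either genotype, but those of the QRICH1 KO cells lay close together, with 1.22-fold (log2 0.29 ± 0.11 SE, adjusted p = 0.0882) there and 1.71-fold (log2 0.77 ± 0.11 SE, adjusted p = 3.97e-05) in WT cells. The difference between these responses of KDELR1 was log2 -0.49 ± 0.15 SE and did not pass the test (adjusted p = 0.418).

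All 6 cargo receptor genes rose in WT cells and 5 rose in QRICH1 KO cells. MCFD2, the soluble partner of the lectin LMAN1 in carrying clotting factors, responded most. MCFD2 had 189.5, 209 and 193 CPM in QRICH1 KO cells with Tm, against 55.3, 66.96 and 70.1 CPM with DMSO. In WT cells MCFD2 had 246, 215 and 237 CPM with Tm, against 57.97, 57.9 and 66.1 CPM with DMSO. The Tm libraries stood clear of the DMSO libraries, with 3.08-fold (log2 1.62 ± 0.11 SE, adjusted p = 7.15e-09) in QRICH1 KO cells and 3.83-fold (log2 1.94 ± 0.12 SE, adjusted p = 4.24e-10) in WT cells. LMAN1 itself rose 2.88-fold in QRICH1 KO cells and 3.2-fold in WT cells. The lectin LMAN2 responded least of the class. LMAN2 had 258, 245 and 203 CPM in QRICH1 KO cells with Tm, against 193, 193 and 165 CPM with DMSO. In WT cells LMAN2 had 244, 300.5 and 263 CPM with Tm, against 208, 179 and 150.1 CPM with DMSO. Its libraries did not overlap in either genotype, and its change of 1.28-fold (log2 0.36 ± 0.13 SE, adjusted p = 0.0747) did not pass in QRICH1 KO cells, whereas it rose 1.51-fold (log2 0.59 ± 0.13 SE, adjusted p = 0.00293) in WT cells. MIA2 and MIA3 help load bulky cargo such as collagen. MIA2 rose 2.6-fold in QRICH1 KO cells and 3.27-fold in WT cells, and MIA3 rose 2.76-fold in QRICH1 KO cells and 2.99-fold in WT cells. SURF4, a receptor for soluble cargo, rose 1.93-fold in QRICH1 KO cells and 2.71-fold in WT cells.

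The TMED genes encode the p24 proteins, which cycle in both coats and carry, among others, proteins with a lipid anchor. In QRICH1 KO cells 5 of 7 rose and in WT cells 6 of 7. TMED7 had the largest response and the widest spread. TMED7 had 72.7, 129 and 152 CPM in QRICH1 KO cells with Tm, against 13.8, 27.6 and 40.97 CPM with DMSO. In WT cells TMED7 had 250.3, 94.6 and 211 CPM with Tm, against 22.2, 45.2 and 49.9 CPM with DMSO. No Tm library fell within the DMSO range, but libraries of a group differed widely, so the SE is wide: 4.29-fold (log2 2.10 ± 0.38 SE, adjusted p = 0.000905) in QRICH1 KO cells and 4.68-fold (log2 2.23 ± 0.38 SE, adjusted p = 0.000296) in WT cells. A readthrough transcript, TMED7-TICAM2, covers 24.0% of its exonic bases. The order of the Tm libraries was not particular to TMED7. TMED5, LMAN1, MIA3, USO1, SEC24A and ARCN1 were likewise lowest of their group in QRICH1 KO library 1 and WT library 2 with Tm. Within QRICH1 KO cells with Tm they were highest in library 3. TMED9, LMAN2 and YIF1A ran the other way, highest in QRICH1 KO library 1 and WT library 2 and lowest in QRICH1 KO library 3. The cause was not tested. TMED4 was the least responsive. TMED4 had 119.8, 138 and 113 CPM in QRICH1 KO cells with Tm, against 128, 115 and 119 CPM with DMSO. In WT cells TMED4 had 127, 126 and 129 CPM with Tm, against 124, 117 and 116 CPM with DMSO. The TMED4 libraries overlapped in QRICH1 KO cells and, by a narrow gap, did not in WT cells, and neither change passed the test (log2 0.03 ± 0.1 SE, adjusted p = 0.871 in QRICH1 KO cells, and log2 0.10 ± 0.1 SE, adjusted p = 0.557 in WT cells). TMED2 rose 2.2-fold in QRICH1 KO cells and 2.81-fold in WT cells, TMED9 rose 2.37-fold in QRICH1 KO cells and 3.66-fold in WT cells, TMED5 rose 2.24-fold in QRICH1 KO cells and 2.53-fold in WT cells and TMED10 rose 1.84-fold in QRICH1 KO cells and 2.19-fold in WT cells. The rise of TMED3 in WT cells, 1.24-fold (adjusted p = 0.0485), passed in 2 of the 12 fits that left out 1 library.

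The SNAREs, which fuse the vesicles with their target, rose as a group: 5 of 5 in WT cells and 4 of 5 in QRICH1 KO cells. BET1 led. BET1 had 53.5, 55.1 and 37.6 CPM in QRICH1 KO cells with Tm, against 11.5, 13.8 and 14.3 CPM with DMSO. In WT cells BET1 had 66.6, 53.3 and 62.3 CPM with Tm, against 10.6, 14.6 and 14.6 CPM with DMSO. It rose 3.68-fold (log2 1.88 ± 0.17 SE, adjusted p = 1.79e-07) in QRICH1 KO cells and 4.52-fold (log2 2.17 ± 0.17 SE, adjusted p = 2.02e-08) in WT cells, and the libraries did not overlap. STX5, the least abundant of the 55 by count, rose 2.56-fold in QRICH1 KO cells and 2.93-fold in WT cells, with at least 18 counts in each DMSO library. GOSR2 rose 1.91-fold in QRICH1 KO cells and 1.99-fold in WT cells, and SEC22B rose 1.87-fold in QRICH1 KO cells and 2.18-fold in WT cells. YKT6 responded least. YKT6 had 67.4, 50.6 and 50.2 CPM in QRICH1 KO cells with Tm, against 50.5, 44.6 and 37.5 CPM with DMSO. In WT cells YKT6 had 59.6, 63.3 and 49.3 CPM with Tm, against 27.2, 36.1 and 41.9 CPM with DMSO. Its libraries overlapped in QRICH1 KO cells, where 1.27-fold (log2 0.34 ± 0.16 SE, adjusted p = 0.173) did not pass the test, and were apart in WT cells, where it rose 1.63-fold (log2 0.71 ± 0.17 SE, adjusted p = 0.00423).

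Among the tethers, RAB1 and YIP proteins, 5 of 6 rose in each genotype. USO1 (p115), which holds incoming vesicles at the Golgi, led in both. USO1 had 143, 168 and 211 CPM in QRICH1 KO cells with Tm, against 54.9, 66.3 and 82.7 CPM with DMSO. In WT cells USO1 had 279.7, 197 and 230.3 CPM with Tm, against 76.6, 88.2 and 97.9 CPM with DMSO. Its Tm and DMSO libraries were apart, with 2.56-fold (log2 1.36 ± 0.17 SE, adjusted p = 1.41e-05) in QRICH1 KO cells and 2.69-fold (log2 1.43 ± 0.17 SE, adjusted p = 4.88e-06) in WT cells. The Golgi tether GOLGB1 (giantin) rose 1.87-fold in QRICH1 KO cells and 2.14-fold in WT cells, and the GTPase RAB1A, which recruits USO1, rose 1.96-fold in QRICH1 KO cells and 2.6-fold in WT cells. Of the membrane proteins that cycle with the vesicles, YIPF5 rose 1.95-fold in QRICH1 KO cells and 2.35-fold in WT cells, and YIF1A rose 1.3-fold in QRICH1 KO cells and 1.43-fold in WT cells. The QRICH1 KO call of YIF1A was lost in 7 of the 12 fits that left out 1 library (log2 0.32 to 0.43, adjusted p = 0.0515 to 0.145), those without QRICH1 KO Tm library 1 or 2, any QRICH1 KO DMSO library, WT Tm library 3 or WT DMSO library 2. RAB1B, the paralog of RAB1A, was the one gene called lower with Tm in either genotype. RAB1B had 38.4, 32.7 and 31.2 CPM in QRICH1 KO cells with Tm, against 52.00, 43.5 and 40.03 CPM with DMSO. In WT cells RAB1B had 29.4, 31.05 and 29.9 CPM with Tm, against 40.01, 38.2 and 34.8 CPM with DMSO. All Tm libraries were below all DMSO libraries of their genotype. RAB1B fell in QRICH1 KO cells (log2 -0.41 ± 0.13 SE, adjusted p = 0.0378) and did not pass in WT cells (log2 -0.32 ± 0.13 SE, adjusted p = 0.0866). The QRICH1 KO call is at the edge: it was lost without the count filter, with only those 6 libraries in the fit, without library 3 of both QRICH1 KO groups, and in 6 of the 12 fits without 1 library. Antisense gene AP001107.2 covers 29.4% of the exonic bases of RAB1B, and CEP68 on the opposite strand shares 22.9% of those of RAB1A.

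Because these families hold close paralogs, the balance within each was compared inside every library, where library size cancels. Of 20 paralog pairs, the log2 ratio shifted with Tm in 18 (exact two-sided permutation of treatment within genotype, p = 0.005, the smallest that 400 arrangements can give, and 0.00556 after Benjamini-Hochberg adjustment over 20 pairs). SEC24A to SEC24C moved by 0.16 (exact permutation p = 0.34) and MIA2 to MIA3 by 0.05 (exact permutation p = 0.83), and neither passed. Pairs in the larger families share genes, so the 20 are not independent. Gene pairs outside these families were not compared, so no share stands beside the 18. The largest shifts were -4.09 for SEC24B to SEC24D, -3.28 for SEC24C to SEC24D and -3.13 for SEC24A to SEC24D. ARFGAP2 to ARFGAP3 moved by -2.13, ARF4 to ARF5 by 1.97, COPG1 to COPG2 by 1.55, RAB1A to RAB1B by 1.53 and SEC23A to SEC23B by -1.48. The smallest of the 18 was KDELR2 to KDELR3, 0.19, where Tm and DMSO libraries pooled over the genotypes overlapped. Within the KDEL receptors KDELR1 lost ground to both others, by -0.79 to KDELR2 and -0.60 to KDELR3.

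As shares of the family per transcript length (mean ± SD, n = 3 each), SEC24D made up 51.8% ± 6.2 in QRICH1 KO cells with Tm, 8.95% ± 3.2 in QRICH1 KO cells with DMSO, 54.9% ± 2 in WT cells with Tm and 8.44% ± 2.7 in WT cells with DMSO. For SEC24B the shares were 19.2% ± 3.1 in QRICH1 KO cells with Tm, 47.1% ± 4.8 in QRICH1 KO cells with DMSO, 17.2% ± 3 in WT cells with Tm and 49.9% ± 1 in WT cells with DMSO. SEC24D was among the smallest parts of the family with DMSO and the largest with Tm in each genotype. The family's summed level was 48.4 ± 5.81 CPM per kb in QRICH1 KO cells with Tm and 20.9 ± 2.33 with DMSO, and 54.1 ± 5.48 in WT cells with Tm and 22.4 ± 3.51 with DMSO. SEC23B held 87.7% ± 2 in QRICH1 KO cells with Tm, 76.7% ± 5.5 in QRICH1 KO cells with DMSO, 90.2% ± 1.5 in WT cells with Tm and 71.9% ± 3.1 in WT cells with DMSO. ARF4 held 20.9% ± 2.2 in QRICH1 KO cells with Tm, 10.99% ± 0.65 in QRICH1 KO cells with DMSO, 25.3% ± 1.8 in WT cells with Tm and 12.3% ± 0.45 in WT cells with DMSO. ARF1 stayed the largest part of its family, with a lowest group mean of 69.4%. ARFGAP3 held 16.2% ± 0.13 in QRICH1 KO cells with Tm, 5.01% ± 0.87 in QRICH1 KO cells with DMSO, 21.6% ± 2.6 in WT cells with Tm and 6.27% ± 1.4 in WT cells with DMSO. KDELR2 held 70.7% ± 3.1 in QRICH1 KO cells with Tm, 58.4% ± 2.5 in QRICH1 KO cells with DMSO, 68.5% ± 2.1 in WT cells with Tm and 58.3% ± 0.33 in WT cells with DMSO, while KDELR3 was between 4.25% and 4.68% in the 4 group means.

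**Figure D3:**
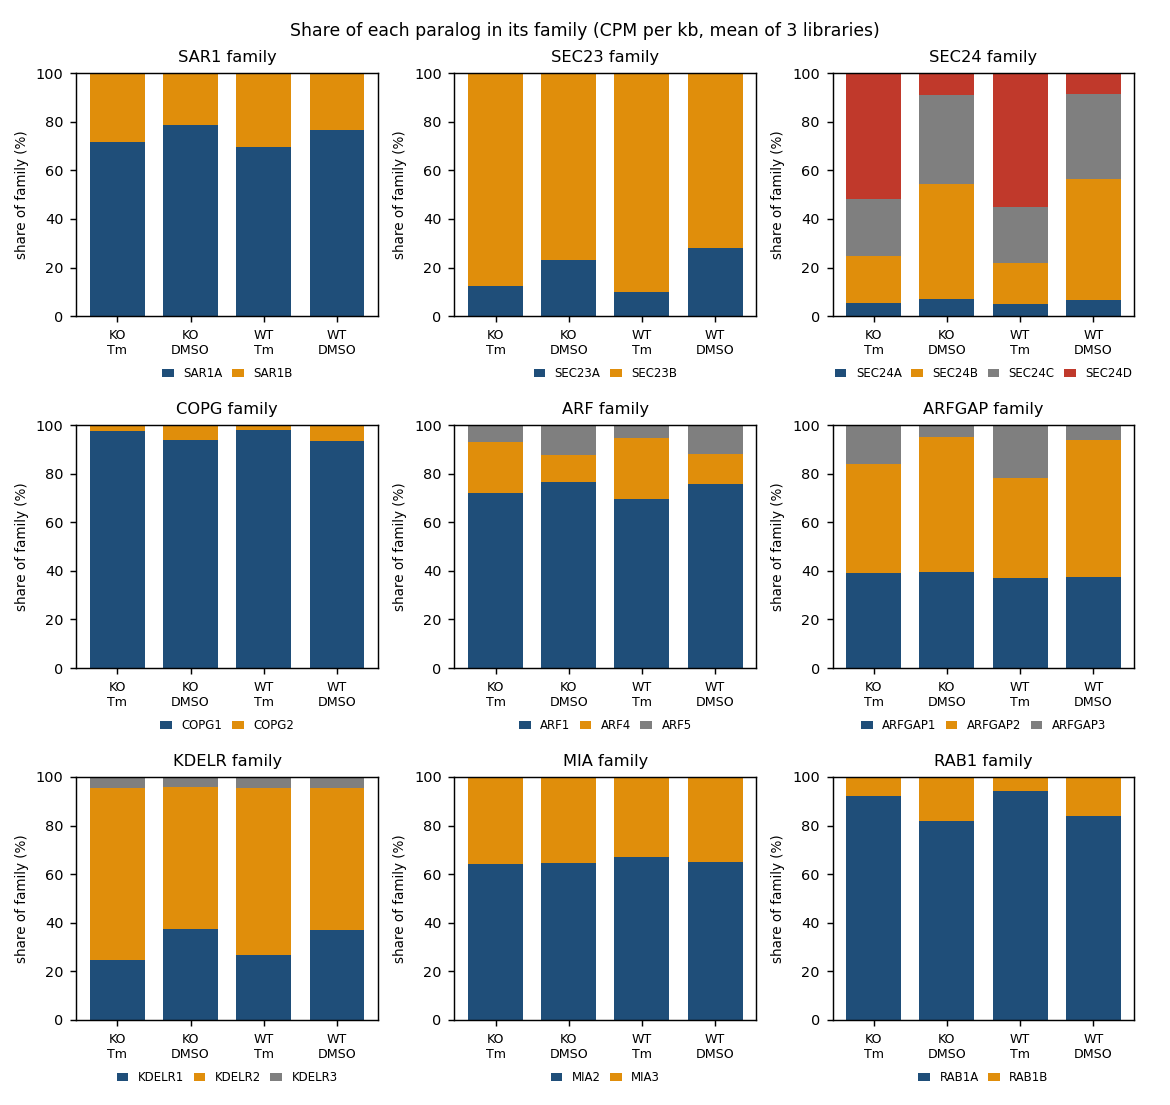
Share of each paralog in its family (vertical axes, percent of the family's summed CPM per kb, mean of 3 libraries) in the 4 groups, for 9 families. The SEC24D part is 51.8% and 54.9% in the QRICH1 KO and WT groups with Tm, and 8.95% and 8.44% in those with DMSO, and the MIA2 and MIA3 parts run from 64.2% to 67.2% for MIA2.

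None of the 20 pairs passed for QRICH1 KO against WT after adjustment. ARF1 to ARF4 differed by 0.26 and RAB1A to RAB1B by -0.37 (exact two-sided permutation of genotype within treatment, p = 0.01 each before and 0.1 after adjustment over 20 pairs).

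With Tm, 9 of the 55 genes were lower in QRICH1 KO cells than in WT cells, none was higher and 46 did not pass the test, where 0.76% of all genes tested were lower and 0.406% higher. The 9 are ARFGAP3, TMED9, KDELR1, ARF4, TMED2, KDELR3, SEC23B, KDELR2 and COPB1. They include each of the 3 KDEL receptor genes, 2 of 7 in the ARF cycle, 2 of 7 TMED genes, 1 of 13 in COPII and 1 of 8 in COPI, and none of the cargo receptors, SNAREs or tethers. The median log2 fold change of the 55 was -0.28, beside 0.01 for all genes. It was below 0 in 47 of the 55, as in 48.5% of all genes. In 26 of the 55 every QRICH1 KO library was below every WT library, as in 9.06% of all genes, and in 1, RAB1B, every QRICH1 KO library was above, as in 9.41%.

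**Figure D4:**
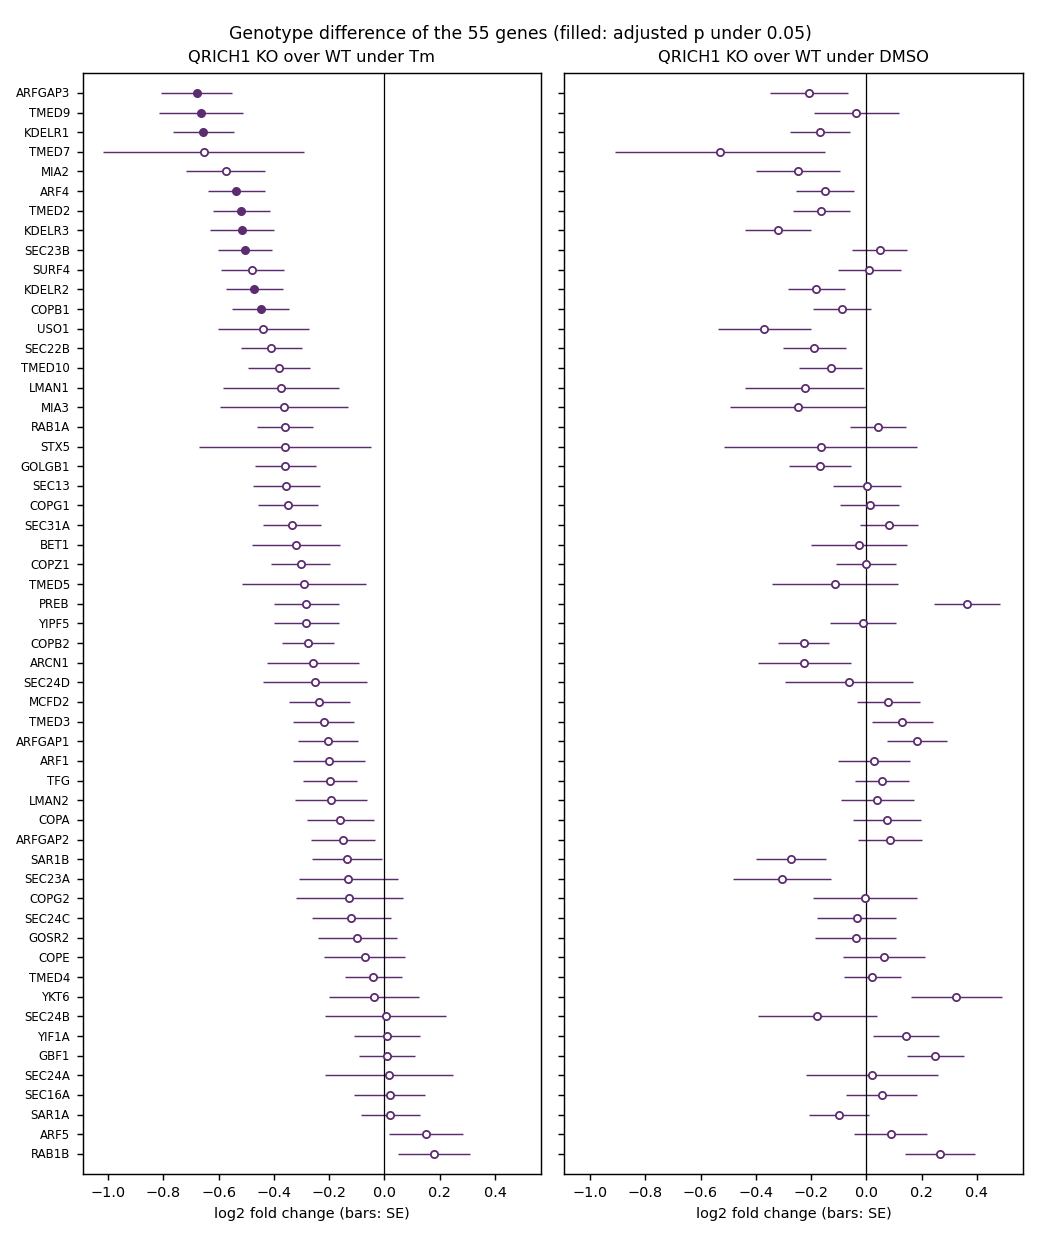
Log2 fold change of QRICH1 KO over WT (horizontal axes, bars are standard errors) for the 55 genes, with Tm (left panel) and with DMSO (right panel), in the order of the left panel. With Tm 47 of 55 points lie below 0 and 9 are filled (called lower), and with DMSO 31 lie below 0 and none is filled.

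ARFGAP3 had 54.4, 55.96 and 50.04 CPM in QRICH1 KO cells with Tm, against 89.00, 77.1 and 90.9 CPM in WT cells with Tm. This was the largest of the 9 differences, log2 -0.68 ± 0.13 SE, adjusted p = 0.0129, with no overlap. TMED9 had 402, 366 and 304 CPM in QRICH1 KO cells with Tm, against 462, 623 and 613 CPM in WT cells with Tm. TMED9, a p24 protein of the early Golgi, was lower, at log2 -0.66 ± 0.15 SE, adjusted p = 0.0415, and its libraries spread more widely than those of ARFGAP3 but did not overlap. The KDEL receptor libraries given above did not overlap between genotypes with Tm either. KDELR1 differed by log2 -0.66 ± 0.11 SE, adjusted p = 0.00499, which was the smallest adjusted p of the 55, KDELR3 by log2 -0.51 ± 0.12 SE, adjusted p = 0.0346 and KDELR2 by log2 -0.47 ± 0.1 SE, adjusted p = 0.0278. ARF4, given above at 409 ± 15.8 CPM in QRICH1 KO cells with Tm and 593 ± 9.76 CPM in WT cells with Tm (mean ± SD, n = 3 each), differed by log2 -0.54 ± 0.1 SE, adjusted p = 0.0143. SEC23B, at 310.1 ± 22.5 CPM in QRICH1 KO cells with Tm and 439.9 ± 17.1 CPM in WT cells with Tm, differed by log2 -0.50 ± 0.099 SE, adjusted p = 0.0157. TMED2 had 909.6, 998 and 859 CPM in QRICH1 KO cells with Tm, against 1309.8, 1269 and 1385 CPM in WT cells with Tm. COPB1 had 282, 305 and 305 CPM in QRICH1 KO cells with Tm, against 403, 418 and 396 CPM in WT cells with Tm. Both were apart between genotypes, by log2 -0.52 ± 0.1 SE, adjusted p = 0.017 for TMED2 and log2 -0.45 ± 0.1 SE, adjusted p = 0.0412 for COPB1. SEC24D, the strongest responder, differed by log2 -0.25 ± 0.19 SE, adjusted p = 0.62, and did not pass.

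**Figure D5:**
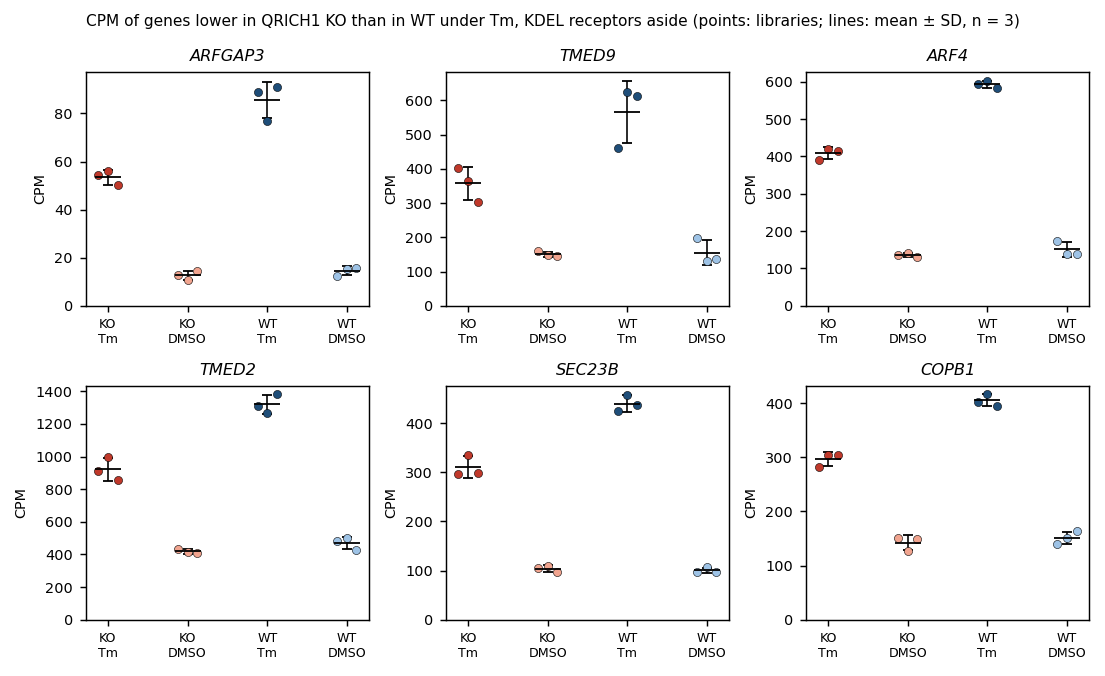
TMM-scaled CPM (vertical axes, linear, each from 0) of the 6 genes called lower in QRICH1 KO than in WT with Tm, other than the KDEL receptors, with 1 point per library and lines at the mean ± SD of 3 libraries. In each the QRICH1 KO Tm libraries lie below the WT Tm libraries and above every DMSO library, and the DMSO groups overlap between genotypes.

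Just outside the threshold lay SURF4 (log2 -0.48, adjusted p = 0.05002, over the threshold of 0.05), MIA2 (log2 -0.57, adjusted p = 0.0585) and SEC22B (log2 -0.41, adjusted p = 0.0846), so the 9 are not set off from the rest by a gap. The count moved with single libraries. It was 2, 4 and 2 without QRICH1 KO Tm library 1, 2 and 3, and 5, 4 and 2 without WT Tm library 1, 2 and 3, 5 without QRICH1 KO DMSO library 2, 5 without library 3 of both QRICH1 KO groups, and 18 with DESeq2. KDELR1 passed in all 12 fits that left out 1 library, ARF4 in 10, TMED2 in 9, SEC23B and ARFGAP3 in 8, TMED9 in 6, KDELR2 and KDELR3 in 5 and COPB1 in 4.

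With DMSO none of the 55 differed between QRICH1 KO and WT by edgeR's test or by DESeq2, where 0.0971% of all genes tested did by edgeR. Unadjusted p-values under 0.05 were found for 6 of the 55, as for 9.07% of all genes: GBF1 and PREB with higher and COPB2, SAR1B, KDELR3 and USO1 with lower values in QRICH1 KO cells. The median log2 fold change was -0.03. Every QRICH1 KO library was above every WT library for 5 of the 55, as for 7.4% of all genes, and below for another 5, as for 6.09%. The 5 below were the 3 KDEL receptor genes, COPB2 and GOLGB1. For KDELR3, 16.3, 16.9 and 18.2 CPM in QRICH1 KO cells with DMSO stood against 23.00, 19.7 and 21.6 CPM in WT cells with DMSO, which do not overlap (log2 -0.32, adjusted p = 0.436). KDELR1 (log2 -0.17, adjusted p = 0.666) and KDELR2 (log2 -0.18, adjusted p = 0.607) did not pass either. Without the count filter 1 gene, TMED7, was called lower.

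The test of whether the response to Tm differed between genotypes passed for none of the 55 and for none of all 11323 genes with edgeR. With DESeq2 it passed for 2 of the 55, PREB and SEC23B. Of all genes it passed for 9 with a higher and 37 with a lower log2 fold change with Tm in QRICH1 KO cells. Unadjusted edgeR p-values were under 0.05 for 14 of the 55, as for 6.84% of all genes, and in each of the 14 the response was smaller in QRICH1 KO cells. Across the set the log2 fold change with Tm was lower in QRICH1 KO than in WT cells for 50 of 55 genes. The median difference was log2 -0.23, and 48.8% of all genes lay below 0. This is a sign and not a size: RAB1B and COPG2, below 0 in both genotypes, are among the 50. SEC24B and ARF5, also below 0 in both, are not. PREB had 187, 199 and 158 CPM with Tm and 81.6, 81.9 and 68.4 CPM with DMSO in QRICH1 KO cells, and 214, 234 and 213 CPM with Tm and 53.1, 61.3 and 65.4 CPM with DMSO in WT cells. Its QRICH1 KO libraries were lower than WT with Tm and higher than WT with DMSO, and the responses differed by log2 -0.65 ± 0.17 SE, adjusted p = 0.286. For SEC23B they differed by log2 -0.55 ± 0.14 SE, adjusted p = 0.278. These comparisons share libraries, so the genotype difference with Tm and the lower log2 fold changes with Tm are not separate observations.

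Further Golgi and post-Golgi genes were counted in the same way, as genes that rose and fell with Tm of those tested, beside 9.09% higher and 6.53% lower of all genes in QRICH1 KO cells and 12.6% higher and 11.1% lower in WT cells. No difference between these lists and the 55 genes was tested. In the Golgi matrix, the scaffold of golgins and GRASP proteins, 5 of 10 rose in QRICH1 KO cells and 8 of 10 in WT cells, and none fell. There the largest WT changes were 2.37-fold for GOLGA4 and 2.33-fold for GOLGA5. In the Golgi-to-ER tether and its SNAREs 4 of 10 rose in QRICH1 KO cells and 7 of 10 in WT cells, led in WT cells by SCFD1 (2.12-fold) and NBAS (1.86-fold). Of the other YIP proteins and RABs 4 of 12 rose in QRICH1 KO cells and 7 of 12 in WT cells, led in WT cells by RAB2B (2.35-fold) and RAB6A (2.31-fold).

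Of 17 other cargo receptors and adaptors 4 rose in QRICH1 KO cells and 3 in WT cells, where TMEM39A rose 5.12-fold and CNIH1 1.77-fold. In the COG complex, a tether within the Golgi, 2 of 8 rose in QRICH1 KO cells, and in WT cells 4 rose and 1 fell, the largest changes being COG3 (log2 1.01, adjusted p = 0.00924) and COG4 (log2 -0.58, adjusted p = 0.00518). In the TRAPP complexes, which load RAB1, 2 of 13 rose and 1 fell in each genotype, with TRAPPC4 (log2 0.74, adjusted p = 0.000232) and TRAPPC6A (log2 0.65, adjusted p = 0.018) the largest in WT cells. In the clathrin adaptors and other post-Golgi coats, which act beyond the ER-Golgi step, 3 of 26 rose and 1 fell in QRICH1 KO cells and 3 rose and 3 fell in WT cells, near the shares for all genes. There AP1M1 (log2 -0.77, adjusted p = 0.00246) and AP3D1 (log2 0.75, adjusted p = 0.0002) changed most in WT cells. With Tm, 1 gene of all these lists (8, 10, 10, 12, 13, 17 and 26 genes tested) was lower in QRICH1 KO than in WT cells. It was the golgin GOLGA5 (log2 -0.64, adjusted p = 0.00484), where 0.76% of all genes tested were lower.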

How the data were processed

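A single table deposited by the authors holds unnormalised counts of reads for each gene in the 12 libraries, which were made by a modified Smart-seq2 protocol with the Nextera XT kit, which does not mark the strand, per the labels' protocols. Trimmomatic, STAR, DESeq2 and hg38 are named, without versions or roles, in the submitters' processing notes, and nothing used here gives the counting tool, its annotation or its strand setting. Counts were tested as deposited with edgeR 4.0.16 in R 4.3.3: TMM factors, a filter on low counts (minimum count 10), 1 mean per group over all 12 libraries, quasi-likelihood tests and Benjamini-Hochberg adjustment over 11323 genes. A gene was called at adjusted p under 0.05. CPM are TMM-scaled, and CPM per kb divide by the longest principal transcript in GENCODE 29. Paralog ratios used counts plus 0.5. Detection floors cover counting error only, while SEs and SDs carry the spread between libraries. The script was checked on simulated counts.

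Values per library are printed for the genes with the highest and the lowest WT response in each of 8 classes, for genes called between genotypes or in the difference of responses, and for the SEC24 and KDEL receptor genes. PREB's are printed in addition, chosen after its values were seen. Other pathway lists are given by counts, with the 2 largest called WT changes. The members and lists were chosen with earlier results of these data known. DESeq2 1.42.0, other scalings, no filter, leaving out libraries, fits of 2 groups and a replicate block were tried as alternatives. No 2 libraries were copies of each other (chi-square per degree of freedom 8.64 to 35.8 within groups).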

Additional observations from a re-analysis of the deposited data

How the results depend on the processing

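Over the 5 comparisons, none of the 100 called log2 fold changes of the 55 genes changed sign under any alternative run, while 56 of the 175 that were not called did under at least 1, COPG2 with Tm in both genotypes and SEC24B in QRICH1 KO cells among them. Of the 55 genes, those called higher with Tm numbered 38 to 43 in QRICH1 KO cells and 45 to 47 in WT cells over the 12 fits without 1 library. The 1 call of a lower gene with Tm in QRICH1 KO cells, RAB1B, became 0 without the count filter, with only the 2 groups compared in the fit and without library 3 of both QRICH1 KO groups, and 0 to 1 without single libraries. The 9 genes lower in QRICH1 KO than in WT with Tm became 18 with DESeq2, 5 without library 3 of both QRICH1 KO groups and 2 to 10 without single libraries. With DMSO the 0 became 1 without the filter (TMED7, adjusted p = 0.0233), and for the difference of responses the 0 became 2 with DESeq2 (PREB, adjusted p = 0.0307, and SEC23B, adjusted p = 0.00999). The causes were not tested. The 18 shifted and 0 genotype-dependent paralog pairs kept those counts throughout.

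Over all genes, 46 higher and 86 lower in QRICH1 KO than in WT with Tm became 87 and 202 with DESeq2, 126 and 153 without the filter, and 13 to 59 and 35 to 102 without single libraries. With DMSO 2 higher and 9 lower became 24 and 36 with DESeq2, 76 and 62 without the filter, 40 and 19 without library 3 of both QRICH1 KO groups, 2 and 4 with only the 2 groups in the fit, and 2 to 26 and 3 to 13 without single libraries. For the difference of responses 0 and 0 became 9 and 37 with DESeq2, 12 and 32 without the filter, and up to 4 lower without single libraries. The 739 lower with Tm in QRICH1 KO cells became 469 without library 3 of both QRICH1 KO groups and 389 to 778 without single libraries.

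The replicate numbers did not pair the libraries across all groups: over 18 same-numbered pairs the correlation of deviations was -0.186 to 0.265, and 4 of 12 libraries correlated best with their own number. Between Tm and DMSO in QRICH1 KO cells it was 0.213 for libraries 1, 0.0021 for libraries 2 and 0.265 for libraries 3. The crossed pairs of libraries 1 and 3 there had -0.239 and -0.237. In WT cells the same-numbered values were -0.139, -0.051 and 0.019. With the number as a replicate block, 44 genes rose and 1 fell with Tm in QRICH1 KO cells, 48 rose in WT cells, 11 were lower in QRICH1 KO than in WT with Tm, and 0 differed with DMSO or in the response. All 55 genes stood above the floor of 0.168 to 0.438 CPM in every library, but whether depth limited the calls was not tested. STX5, with as few as 18 counts in a DMSO library, had an SE of 0.33 for its log2 change with Tm in each genotype.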
